A study of Mus musculus with 25 samples.

Results

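The cytosolic ribosomal protein genes described here were the 76 genes, of 13266 listed, whose symbol was Rpl or Rps followed by a number and at most 1 of the letters a, l or x, or was Rplp0, Rplp1, Rplp2 or Rpsa. They comprised 45 genes of the large and 31 of the small ribosomal subunit. A score was formed for each library as the mean of their deposited log2 expression values. The RNA came from peritoneal macrophages, the resident phagocytes of the mouse abdominal cavity, all untreated and taken at day 0. The 6 genotypes were compared in 25 libraries. WT had 5 libraries and each other genotype 4. These were the single knockouts (KO) of SAMHD1, of MDA5 and of RIG-I, and the double knockouts (DKO) labelled SAMHD1, MDA5 DKO and, for the other sensor, SAMHD1, RIG-I DKO, both written below without the comma. SAMHD1 (gene Samhd1) degrades deoxynucleotides, and MDA5 (Ifih1) and RIG-I (Ddx58) are cytosolic RNA sensors. For the SAMHD1 KO group, the titles of 2 samples call the line DEL and those of the other 2 KO, and the labels give no strain, sex, age or nature of the alleles. Nothing in the labels says that libraries came from separate animals, so p-values measure only the spread between these libraries, which may be technical.

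Each cytosolic ribosome holds 1 copy of nearly every ribosomal protein, and cells keep the mRNAs of these proteins in step. Many of them are TOP mRNAs, which begin with a run of pyrimidines at the 5′ end that lets the mTOR pathway switch their translation and their storage together. In macrophages, as in other cells that rarely divide, ribosomal protein mRNAs still make up a large part of the mRNA pool.

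The annotated starts of 6 genes are shown because they contrast 4 genes that rose in SAMHD1 RIG-I DKO against SAMHD1 KO with 2 whose fold change there was near 0. Each sequence runs from 15 bases before to 15 bases after the RefSeq start on build GRCm38.p6, 5′ to 3′ on the transcript strand, and capitals mark the part of each unbroken pyrimidine run of at least 8 bases that lies in the window.
Rpl35: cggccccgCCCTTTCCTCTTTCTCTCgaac
Rps15a: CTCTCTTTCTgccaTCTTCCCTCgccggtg
Rps12: taccgtcatgcggccaccgccggCCTTTTC
Rps27l: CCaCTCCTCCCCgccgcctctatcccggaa
Rpl4: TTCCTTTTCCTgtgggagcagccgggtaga
Rps26: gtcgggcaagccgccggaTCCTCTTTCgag
The windows lie at chr2:39005117-39005146 (minus strand), chr7:118116133-118116162 (minus), chr10:23787195-23787224 (minus), chr9:66946071-66946100 (plus), chr9:64173372-64173401 (plus) and chr10:128626492-128626521 (minus). The longest runs, including bases outside the window, were 18 bases in Rpl35, 10 in Rps15a, 11 in Rps12, 9 in Rps27l, 14 in Rpl4 and 9 in Rps26. Genes of both kinds thus held a run, but those shown do not stand for the whole list. Rpl27, Rpl22, Rpl35a and Rpl41, which also rose, had no such run near the annotated start. The capitals of Rps27l and Rpl4 lie wholly before that start. Of the 76 genes, 56 matched the RefSeq promoter table, and 28 of them (50%) had such a run within 20 bases of the start on the transcript strand, against 20.8% of all 27025 promoters. The letters CTTTCC were found on either strand of the 300-base window, 250 bases before to 50 after the start, in 48.2% of the 56 and 26.3% of all promoters. GGAAGT was found in 48.2% and 24.1%, CTTTTC in 26.8% and 21.8%, and TATAAA in 10.7% and 14.2%. Annotated starts can differ from the starts used in these cells, and a match is a description of letters only.

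Before the ribosomal protein genes are described, some libraries need naming. The listed genes held 25886469 to 39590589 reads per library. Ifih1 and Ddx58 followed the labels, with 5.53 normalized counts of Ifih1 on average in MDA5 KO against 1804 in WT, and 202 of Ddx58 in RIG-I KO against 1536. A normalized count is the number of reads divided by the authors' size factor of the library. Samhd1 averaged 9904 normalized counts in WT, but SAMHD1 KO library 2 held 48.1% and SAMHD1 MDA5 DKO library 3 held 50% of that mean, whereas the other SAMHD1-deficient libraries held 10.8% to 18.7%. The genotype names of these 2 libraries are those of their labels. WT library 3 and SAMHD1 KO library 2 carry the last 2 library codes in the column names. They also stood apart on the first principal component, at -42.8 and -47.9, with all other libraries between -3.92 and 14.4. What the codes stand for was not stated in the labels, and values are given with and without these 2 libraries. They were also the 2 lowest on the score, so leaving them out narrows the spread against which the p-values are set. The median SD of the ribosomal protein genes around the genotype means fell from 0.31 to 0.18 on the deposited log2 scale. Marker levels went with the macrophage label. All 12 markers of large peritoneal macrophages were listed and summed to between 818458 and 1075510 normalized counts per library. The highest sum of any other cell type list was 37417, for small peritoneal macrophages and monocytes. Being listed does not tell cell types apart, since 11 of 12 B cell markers were listed too, and a few abundant genes can make up most of a sum.

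The ribosomal protein mRNAs were among the most abundant of the macrophages: 69 of the 76 genes were among the 500 genes with the highest mean normalized count and 10 were among the highest 100. Means over all libraries ran from 1515 for Rps27l to 56506 for Rpsa, the laminin-receptor protein of the small subunit, in 72 genes. The other 4 were Rps4l (752), Rpl6l (132), Rpl39l (16.9) and Rpl32l (7.77). Of these, GENCODE M21 annotates Rps4l, Rpl6l and Rpl32l as pseudogenes, and the other 73 genes as protein coding. All 76 passed the filter on low values. Per kilobase of coding length, the highest levels were those of Rpl41 (240069), which encodes the shortest ribosomal protein, Rps29 (158923) and the stalk protein gene Rplp1 (131368). The lowest were Rpl39l (110), a paralogue of Rpl39 with a testis-biased expression, Rps27l (6014), a p53-inducible paralogue of Rps27, and Rpl24 (23110). These ranks depend on dividing by coding length, although reads can fall on the whole transcript. Rpl41, for example, has 75 coding bases in a transcript of 582. Of the paralogues Rps27l, Rpl39l, Rpl3l and Rpl10l, the last 2 are not analysed here. Reads of most ribosomal protein genes can also fit processed pseudogenes of nearly the same sequence, so each gene's count is uncertain to the extent that the counting split or shared such reads.

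The score was lowest in SAMHD1 KO and highest in both double knockouts. On the deposited log2 scale it was 14.00, 14.17, 12.94, 14.16 and 14.16 in WT libraries 1 to 5, a mean of 13.89 ± 0.53 (SD, n = 5). In SAMHD1 KO it was 13.98, 13.24, 13.92 and 13.62 (13.69 ± 0.34, SD, n = 4). WT library 3 and SAMHD1 KO library 2 were the lowest of all 25, and without them WT averaged 14.12 ± 0.08 (SD, n = 4) and SAMHD1 KO 13.84 ± 0.19 (SD, n = 3). Most sensor knockout libraries lay near or above the upper WT libraries, but MDA5 KO library 4 lay below every WT library except library 3. MDA5 KO libraries scored 14.32, 14.26, 14.14 and 13.87 (14.15 ± 0.20, SD, n = 4), and RIG-I KO libraries 14.32, 14.26, 14.14 and 14.17 (14.22 ± 0.08, SD, n = 4). SAMHD1 MDA5 DKO libraries scored 14.33, 14.37, 14.01 and 14.43 (14.29 ± 0.19, SD, n = 4), with the lowest value in library 3, which held more Samhd1 than the others of its genotype. SAMHD1 RIG-I DKO libraries scored 14.30, 14.55, 14.16 and 14.23 (14.31 ± 0.17, SD, n = 4). Every library of both double knockouts lay above every SAMHD1 KO library, whereas WT, MDA5 KO and RIG-I KO overlapped with their neighbours in this order. In reads, the 76 genes took 2.93% of all listed reads in WT library 3 and 7.54% in SAMHD1 RIG-I DKO library 2. The mean share was 4.34% ± 0.67 (SD, n = 4) in SAMHD1 KO, 4.98% ± 1.17 (SD, n = 5) in WT and 5.58% ± 0.72 (SD, n = 4) in MDA5 KO. RIG-I KO libraries averaged 6.13% ± 0.33 (SD, n = 4). The mean was 6.20% ± 0.71 in the double knockout with MDA5 and 6.51% ± 0.71 in that with RIG-I (SD, n = 4 each). In bulk RNA, fewer cells of a kind and less RNA per cell cannot be told apart.

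**Figure D1:**
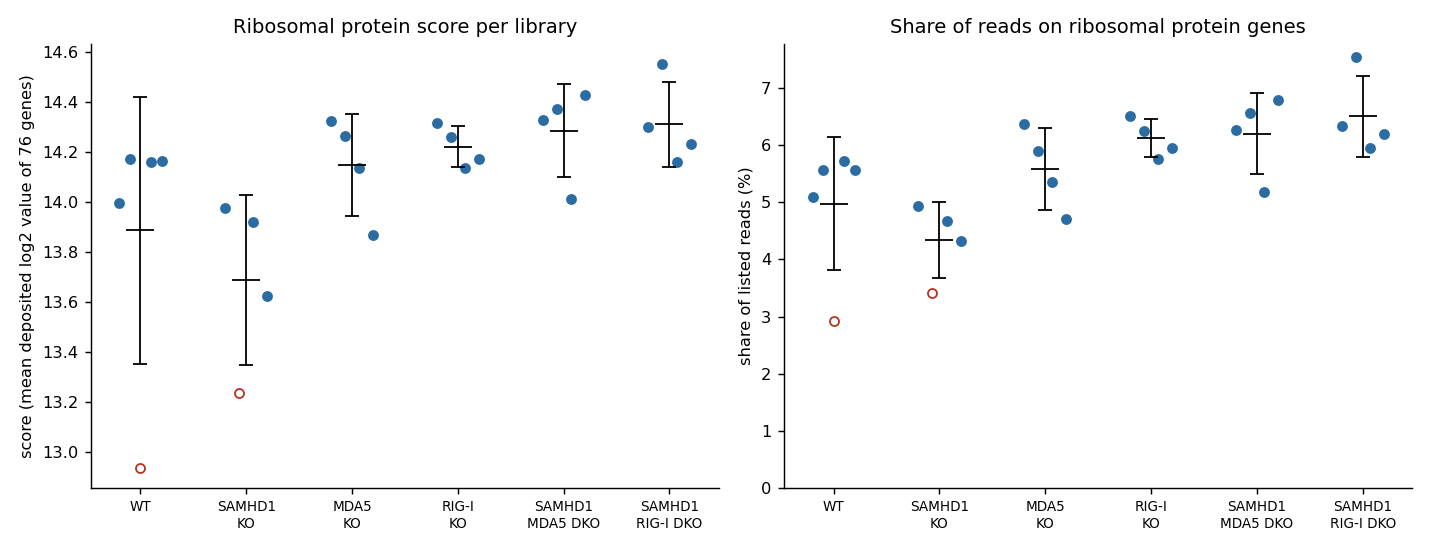
Ribosomal protein score (left, mean deposited log2 value of 76 genes) and share of listed reads (right, percent) in each of the 25 libraries, by genotype; bars are means ± SD and open red circles are WT library 3 and SAMHD1 KO library 2. The 8 double knockout libraries score 14.01 to 14.55 and the 4 SAMHD1 KO libraries 13.24 to 13.98.

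The genes moved together from library to library. Within genotypes, the median correlation between pairs of the 76 genes over the 25 libraries, each value taken as its difference from the genotype mean, was 0.94, against 0.00 for pairs drawn from all genes. It was 0.81 without WT library 3 and SAMHD1 KO library 2. The values share library and depth, and the correlation is a description. No comparison with genes of like abundance or length was made, so these correlations do not show that moving together was particular to the ribosomal protein genes. Their spread around the genotype means had a median SD of 0.31 on the deposited log2 scale, which is compressed near its floor for low genes, against 0.15 over all genes tested, and of 0.18 against 0.13 without those 2 libraries. On log2 of normalized count + 1, the scale of the fold changes below, the medians were 0.33 and 0.22. On that scale the spread was widest for the low genes Rpl39l (0.79) and Rpl32l (0.67), followed by the small subunit genes Rps24 (0.54), Rps14 (0.54) and Rps21 (0.49). It was narrowest for Rpl4 (0.16), a protein that lines the exit tunnel. Rps14, which binds RNA at the platform of the small subunit, held 33619, 40850, 10244.5, 43103 and 40289 normalized counts in WT libraries 1 to 5 and 37459, 15027, 36418 and 15701 in SAMHD1 KO libraries 1 to 4. Rpl4 held 42671, 47351, 33326, 45038 and 46255 in WT, and 41087, 31606, 38070 and 46118 in SAMHD1 KO. For both genes the library with the last code was the lowest of its genotype, but SAMHD1 KO library 4 was low for Rps14 and the highest for Rpl4.

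**Figure D2:**
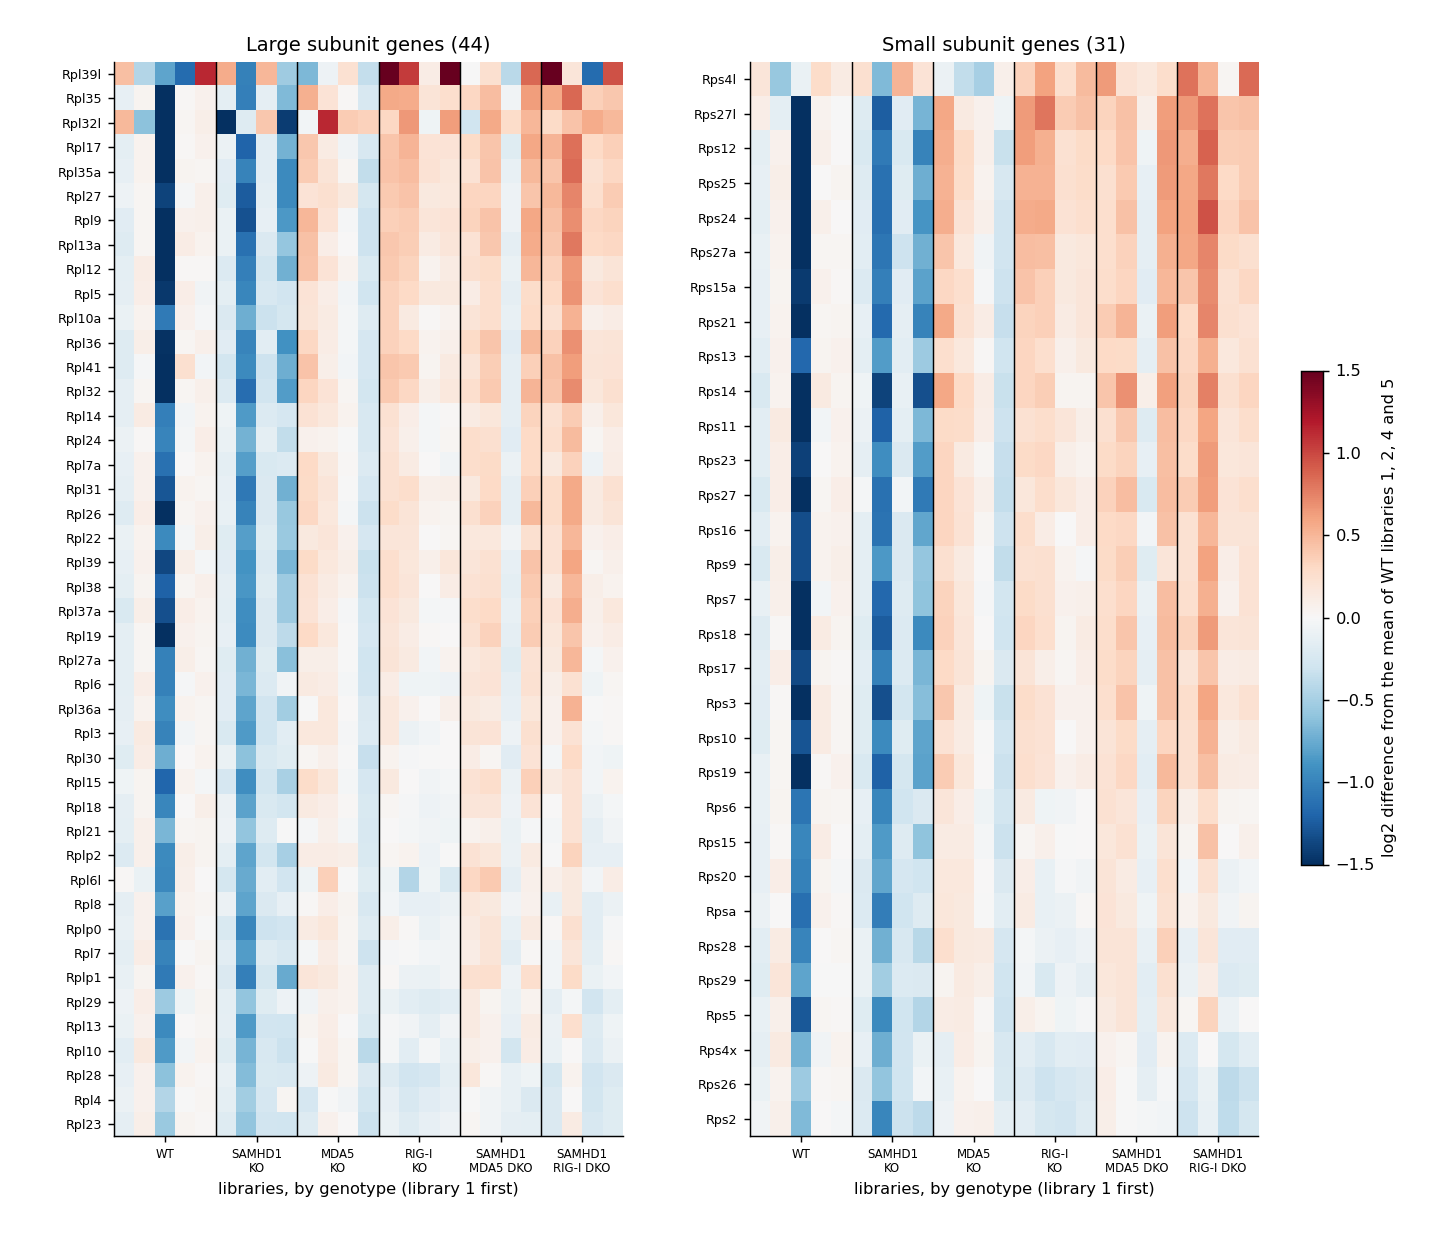
Log2 difference of each gene's normalized count + 1 from the mean of WT libraries 1, 2, 4 and 5, for 44 large and 31 small subunit genes (lines) in 25 libraries (columns, library 1 first in each genotype), with colours ending at ±1.5. WT library 3 and SAMHD1 KO library 2 are blue in nearly every gene, and SAMHD1 RIG-I DKO library 2 is red in most, with Rps2, Rps26 and Rpl4 among the palest.

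With all libraries in the fit, SAMHD1 RIG-I DKO against SAMHD1 KO was the only 1 of the 8 comparisons in which any of the 76 genes passed the test. It compares macrophages with and without RIG-I in the absence of SAMHD1. Of the 76 genes, 32 rose and none fell, at an adjusted p under 0.05 in limma (a linear model on log2 of normalized count + 1, all 25 libraries, Benjamini-Hochberg adjustment over 13252 genes). Of all genes tested, 10.5% were called in either direction and 5.62% were called higher. All 76 fold changes were positive, with a median log2 fold change of 0.62 (1.54-fold) against -0.04 over all genes. In 58 genes every SAMHD1 RIG-I DKO library lay above every SAMHD1 KO library, which was so for 10.4% of all genes. The count of 32 rested on many libraries. It was 0 without SAMHD1 RIG-I DKO library 2 or without SAMHD1 KO library 2, and 0 without both libraries of intermediate Samhd1. It was 1, 21 and 2 without SAMHD1 RIG-I DKO libraries 1, 3 and 4, 3 without SAMHD1 KO library 4, and 58 with WT library 3 left out, and the median log2 fold change stayed between 0.50 and 0.72 under each single omission. Without WT library 3 and SAMHD1 KO library 2 together the count was 52, against 16% of all genes, with a median of 0.50. With the 2 genotypes alone in the fit it was 16. The authors' deposited table called 45 of the 76 lower in SAMHD1 KO, against 15% of its genes.

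Rpl27, a large subunit protein, had the smallest p-value. Its normalized counts were 9028, 4325, 9255 and 5296 in SAMHD1 KO libraries 1 to 4 and 14364, 17071, 12185 and 13295 in SAMHD1 RIG-I DKO. All 4 double knockout libraries were above all 4 SAMHD1 KO libraries, and the difference was 1.09 ± 0.26 (log2 fold change ± SE, limma adjusted p = 0.0182). Rps27l was at 1144, 555, 1167 and 810 in SAMHD1 KO and at 2060, 2300.1, 1754 and 1771 in SAMHD1 RIG-I DKO. The groups again did not overlap, with a difference of 1.15 ± 0.29 (limma adjusted p = 0.0218). Rps12, which in Drosophila takes part in competition between cells of unequal ribosome dosage, was at 28088, 15767, 27909 and 16426 in SAMHD1 KO, and at 47693, 60628, 42228 and 42638 in SAMHD1 RIG-I DKO. It rose by 1.17 ± 0.32 (limma adjusted p = 0.0275) without overlap. Rps15a (0.96 ± 0.26, limma adjusted p = 0.0257), Rpl22 (0.66 ± 0.18, 0.0275), Rps27a (1.03 ± 0.29, 0.0292), Rpl35 (1.04 ± 0.29, 0.0292), Rpl35a (1.03 ± 0.29, 0.0295), Rpl31 (0.83 ± 0.23, 0.0303) and Rpl41 (0.93 ± 0.27, 0.0318) complete the 10 with the smallest p-values. The other 22 that rose had adjusted p-values from 0.0341 (Rps16) to 0.0497 (Rpl37a). At the other end, Rps26, a protein at the mRNA exit channel, held 15056, 11607, 14283 and 17017 in SAMHD1 KO and 14713, 16420, 13417 and 13992 in SAMHD1 RIG-I DKO. These groups overlapped fully (0.02 ± 0.12). Rpl4 (0.05 ± 0.12) was likewise near 0. Rpl32l had the largest of the 76 fold changes (1.21), but it was a low gene with a mean of 7.77 normalized counts and did not pass the test.

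**Figure D3:**
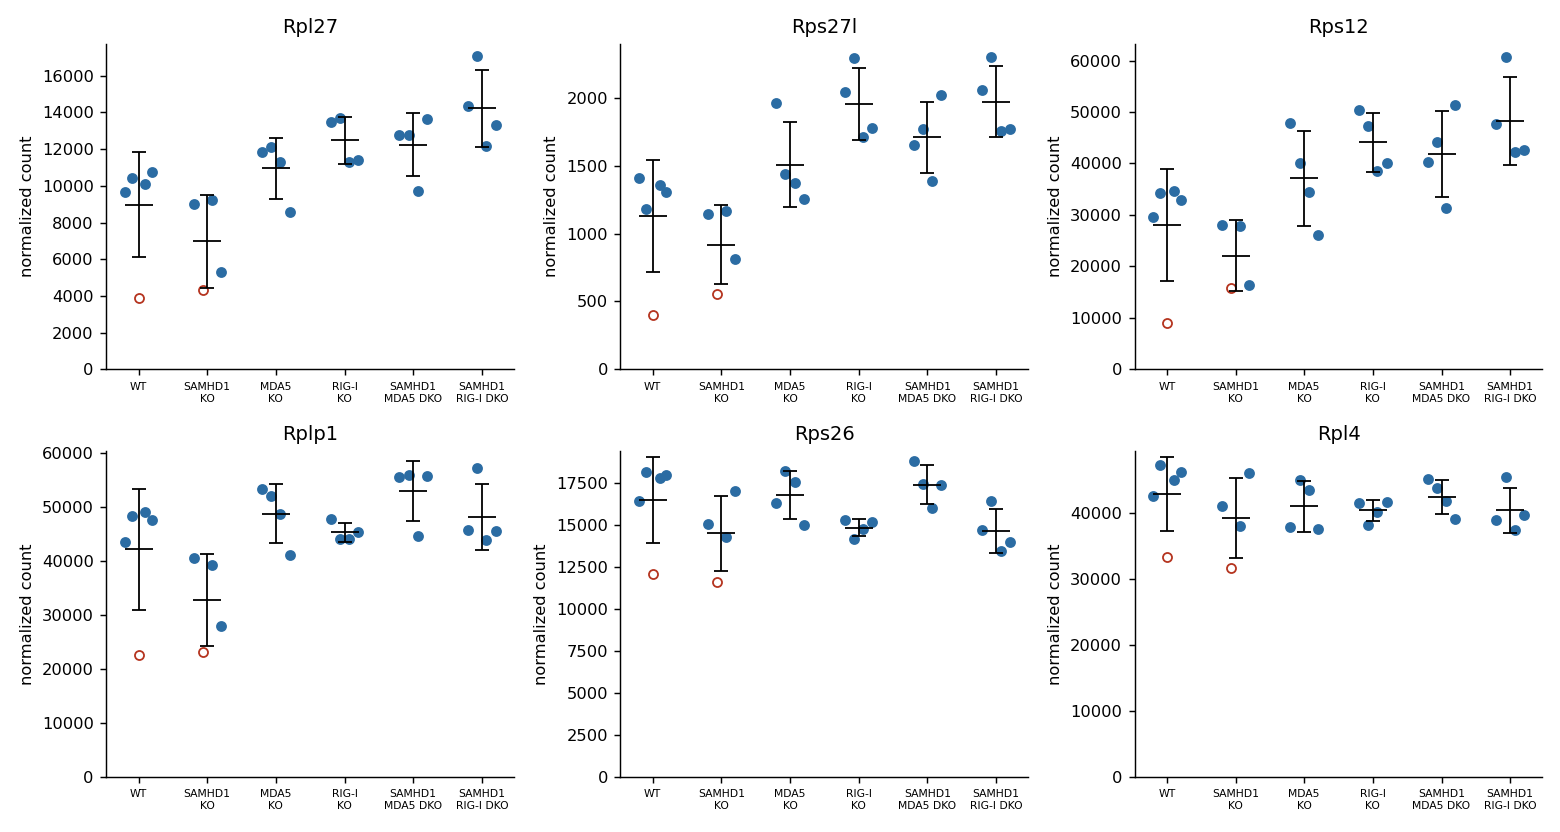
Normalized counts per library of Rpl27, Rps27l, Rps12, Rplp1, Rps26 and Rpl4 by genotype, with bars for mean ± SD and open red circles for WT library 3 and SAMHD1 KO library 2; each vertical axis starts at 0. Rpl27, Rps27l and Rps12 are higher in every SAMHD1 RIG-I DKO library than in any SAMHD1 KO library, and Rps26 and Rpl4 overlap between these genotypes.

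Among all 76 genes 42.1% were called in this comparison, and the shares by role can be read against it. Small subunit genes had a larger median log2 fold change (0.80, 15 of 31 called) than large subunit genes (0.59, 17 of 45 called); the difference between the subunits was not tested. Among 9 proteins around the exit of the nascent chain, Rpl17, Rpl22, Rpl31 and Rpl35 rose (median 0.72). Of the 4 stalk genes, which bind the elongation factors, Rpl12 rose (0.89 ± 0.26, limma adjusted p = 0.0356), while Rplp0 (0.47), Rplp1 (0.59) and Rplp2 (0.45) did not pass. Rpl5, which carries the 5S rRNA and can bind Mdm2, rose by 0.77 ± 0.24 (limma adjusted p = 0.0462). Its partner Rpl11 is listed under a compound symbol and is described below. Rps27a, made as a fusion with ubiquitin, is among the 10 named above. Of the 6 genes at the mRNA channel and decoding site, Rps23 (0.85) and Rps15 (0.59) rose, and Rps2 was at 0.21 with an adjusted p of 0.375 in limma. Among 9 genes with roles outside the ribosome, 5 rose: Rpl13a (0.96 ± 0.31), which in human cells joins the GAIT complex that silences inflammatory mRNAs, Rpl22, Rps27l, Rps19 and Rpl5. Rpsa (0.48), Rps3 (0.91), Rps6 and Rpl26 did not pass. Of 15 genes mutated in Diamond-Blackfan anaemia in humans, 7 rose, with a median log2 fold change of 0.77.

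Markers of other cell types also differed between these groups. Of the 12 B cell markers on the list, 11 were listed in the data, and 10 of them fell in SAMHD1 RIG-I DKO against SAMHD1 KO. Their sum was 72.8 to 93.9 normalized counts in SAMHD1 RIG-I DKO and 371 to 4482 in SAMHD1 KO. Of 8 mast cell markers, 6 were listed and 5 fell, with sums of 1392 to 1769 and 1568 to 3421. T cell markers (4 of 9 listed) summed to 57.4 to 70.2 and 87.5 to 222, and mesothelial and fibroblast markers were not among the listed genes (0 of 6). No listed marker was at 0 throughout a genotype. Markers of small peritoneal macrophages and monocytes (7 of 8 listed) summed to 8464 to 13733 and 10634 to 24705. Of 3 listed dendritic cell markers 1 fell, and of the 12 markers of large peritoneal macrophages 2 fell. Of 3 listed neutrophil and eosinophil markers 1 rose, with overlapping sums of 7207 to 9105 and 7487 to 14123. None of 3 listed erythroid markers was called, with sums of 2.92 to 60.4 and 3.41 to 1750. The part of these cells in the ribosomal protein values was not tested. Within SAMHD1 KO, the B cell marker sums were 4482, 371, 621 and 2067 in libraries 1 to 4, beside scores of 13.98, 13.24, 13.92 and 13.62.

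SAMHD1 MDA5 DKO differed from SAMHD1 KO by about as much, but none of the 76 genes passed the test. The median log2 fold change was 0.61 (1.53-fold), all 76 were positive, and the range ran from 0.13 (Rpl4) to 1.17 (Rps14), against a median of -0.03 over all genes. Limma called 0 of 76, against 0.121% of all genes, voom with TMM (limma's count-based weights) also called 0, and 70 of 76 had an unadjusted p under 0.05, against 23.8% of all genes. In 48 genes the groups did not overlap, against 7.73% of all genes. The authors' deposited table called 30 of the 76 lower in SAMHD1 KO, against 6.62% of its genes. Rplp1 had the smallest p-value. It held 40496, 23114, 39353 and 27899 normalized counts in SAMHD1 KO and 55581, 55996, 44730.2 and 55859 in SAMHD1 MDA5 DKO, with no overlap. The difference was 0.73 ± 0.20 (limma adjusted p = 0.0804). Rpl27, at 12794, 12794, 9742 and 13650 in SAMHD1 MDA5 DKO, was next with 0.88 ± 0.26 (limma adjusted p = 0.0871). Library 3, which held more Samhd1 than the others of its genotype, was the lowest for both genes. Large subunit genes had a median of 0.54 and small subunit genes of 0.76. Both double knockouts were compared with the same 4 SAMHD1 KO libraries. Without WT library 3 and SAMHD1 KO library 2, 41 of 76 passed, against 4.03% of all genes, with a median of 0.46. The count was 63 with WT library 3 alone left out. B cell markers (11 of 12 listed) summed to 274 to 750 in SAMHD1 MDA5 DKO, and none of the 11 was called in limma, none at an unadjusted p under 0.05. All 6 listed mast cell markers had an unadjusted p under 0.05 and a negative fold change (median log2 fold change -2.05), with sums of 712 to 2072 against 1568 to 3421 in SAMHD1 KO, and so did 2 of 3 dendritic cell markers, with sums of 531 to 1161 against 773 to 1247. Limma called none of these markers after adjustment, and their part in the ribosomal protein values was not tested.

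Against WT, none of the single knockouts changed any of the 76 genes at the threshold. SAMHD1 KO had a median log2 fold change of -0.20, with 74 of 76 negative and 2 positive (Rps4l at 0.09 and Rpl39l), against 0.00 over all genes. Limma and voom called 0, against 0.0151% of all genes, and 1 had an unadjusted p under 0.05, against 4.76%. That gene was Rps2, a protein at the mRNA entry, with 47172, 51795, 31099.6, 49163 and 48194 normalized counts in WT and 42604, 24837, 39302 and 37362 in SAMHD1 KO (-0.34 ± 0.14, limma adjusted p = 0.965). Apart from WT library 3, each WT library was above each SAMHD1 KO library. Rpl23 was next (-0.23 ± 0.12, limma adjusted p = 0.965). Without WT library 3 and SAMHD1 KO library 2 the median was -0.31, 47 of 76 had an unadjusted p under 0.05, against 6.54% of all genes, and limma again called 0, against 0.00755%. In 40 genes every SAMHD1 KO library was then below every WT library, against 3.37% of all genes, and in none, against 0.362%, with all libraries. The authors' deposited table also called 0 of the 76. All 6 listed mast cell markers had a positive fold change (median log2 fold change 1.55), and 4 had an unadjusted p under 0.05 in limma. Their sums overlapped, at 1568 to 3421 in SAMHD1 KO and 1473 to 2046 in WT. So low a p was also found for 1 of 3 dendritic cell and 1 of 3 neutrophil and eosinophil markers, and for 0 of 11 B cell markers. Limma called none of these markers after adjustment, and their part in the ribosomal protein values was not tested.

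MDA5 KO had a median of 0.27 with 72 of 76 positive. Limma and voom called 0, against 0.0679% of all genes, and 0 had an unadjusted p under 0.05, against 5.27%. Rps27l stood at 1407, 1182, 404, 1355 and 1302 normalized counts in WT and at 1960, 1441, 1372 and 1254 in MDA5 KO, overlapping (0.52 ± 0.28, limma adjusted p = 0.850). Rpl32l had the largest fold change (0.85 ± 0.45). Rps4l (-0.20 ± 0.21) and Rpl4 (-0.06 ± 0.11) were on the negative side. The median was 0.03 without WT library 3 and SAMHD1 KO library 2.

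RIG-I KO had a median of 0.38 (1.30-fold), with 67 of 76 positive. Limma and voom called 0 of the 76, against 4.21% of all genes, and 19 had an unadjusted p under 0.05 in limma and 17 in voom, against 24.5% of all genes in limma, a share like that of the 76. The authors' deposited table called 1 of the 76 higher, against 8.85% of its genes. Rps27l, at 2041, 2290, 1710 and 1780 in RIG-I KO, lay above all 5 WT libraries (0.91 ± 0.28, limma adjusted p = 0.0584), and Rpl35 followed (0.73 ± 0.28, limma adjusted p = 0.109). In 17 genes all RIG-I KO libraries were above all WT libraries, against 5.8% of all genes. Rps26 (-0.13 ± 0.11) was on the negative side. With WT library 3 and SAMHD1 KO library 2 left out the median was 0.11 and 3 genes passed, against 15.7% of all genes. With all other libraries kept, leaving out SAMHD1 KO library 2 or WT library 4 let 1 gene pass. The 3 named by the joint omission were Rps27l, higher by 0.57 ± 0.14 (limma adjusted p = 0.0129), and 2 lower genes, Rps2 (-0.23 ± 0.07, limma adjusted p = 0.0360) and Rps26 (-0.24 ± 0.08, limma adjusted p = 0.0369). WT libraries 1, 2, 4 and 5 held 16401, 18132, 17763 and 17938 normalized counts of Rps26 and the RIG-I KO libraries 15277, 14170, 14729 and 15144, with no overlap among these. Of 11 B cell markers listed, 10 fell in RIG-I KO, with sums of 67.1 to 88.2 against 140 to 2497 in WT. Of 6 mast cell markers 4 fell (median log2 fold change of the 6, -3.19), with overlapping sums of 1185 to 2334 against 1473 to 2046, as did 1 of 3 dendritic cell markers and 2 of 12 markers of large peritoneal macrophages. The part of these cells in the ribosomal protein values was not tested. All 3 single knockouts were compared with the same WT libraries.

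Between sensor knockouts with and without SAMHD1 the differences were small. SAMHD1 MDA5 DKO against MDA5 KO had a median of 0.14, with 75 of 76 positive, and the corresponding comparison for RIG-I had a median of 0.10, with 70 of 76 positive. Limma and voom called 0 of 76 in both, against 0.00755% and 0.0679% of all genes. An unadjusted p under 0.05 was found for 1 gene, Rps4l (0.54 ± 0.22), against 3.96%, in the first and for 0 genes, against 3.55%, in the second. Groups did not overlap in 1 gene each, against 1.4% and 2.63% of all genes. Rpl24 was next in the first (0.19 ± 0.18), with Rpl32l the only negative gene (-0.19 ± 0.48). In the second, Rpl6l (0.27 ± 0.19) and Rpl24 (0.14 ± 0.18) were highest by p, and Rpl39l (-0.70 ± 0.53) and Rps2 (-0.04 ± 0.15) were negative. Rpl39l, at 39.3, 27.0, 13.6 and 38.3 normalized counts in RIG-I KO and 37.0, 14.4, 5.10 and 25.3 in SAMHD1 RIG-I DKO, overlapped and was low in every library.

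The double knockouts differed little from each other. SAMHD1 MDA5 DKO against SAMHD1 RIG-I DKO had a median of -0.04 with 32 of 76 positive, limma and voom called 0, against 0.158% of all genes, and 1 had an unadjusted p under 0.05, against 8.72%. That gene was Rps26, at 18777, 17440, 15974 and 17382 normalized counts in SAMHD1 MDA5 DKO and 14713, 16420, 13417 and 13992 in SAMHD1 RIG-I DKO, overlapping only through the last group's library 2 (0.25 ± 0.12, limma adjusted p = 0.567). Rps2 was higher by 0.27 ± 0.15, the only gene of the 76 whose groups did not overlap, against 5.25% of all genes. Rps4l (-0.23 ± 0.22) and Rpl5 (-0.23 ± 0.24) had the smallest p-values on the negative side, and the range ran from -0.28 (Rps24) to 0.27 (Rps2).

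The interaction terms ask whether the difference made by SAMHD1 loss depended on the sensor. Each is the double knockout against its sensor knockout, minus SAMHD1 KO against WT. With MDA5 the median was 0.35 and all 76 were positive. With RIG-I it was 0.31 and 75 of 76 were positive. Limma called 0 genes of all tested in both (0%), voom called 0 of the 76, and no member had an unadjusted p under 0.05, against 2.78% and 2.83% of all genes. The smallest p-values were those of Rps2 (0.36 ± 0.20) and Rplp1 (0.47 ± 0.27) with MDA5, and of Rpl6l (0.45 ± 0.26) and Rplp1 (0.43 ± 0.27) with RIG-I, where Rpl39l was the only negative gene (-0.74 ± 0.74). Without WT library 3 and SAMHD1 KO library 2, 56 and 46 of the 76 had an unadjusted p under 0.05, against 6.46% and 5.53% of all genes, with medians of 0.45 and 0.41, and none passed after adjustment (0% of all genes in both). Both terms contain the same WT and SAMHD1 KO libraries.

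**Figure D4:**
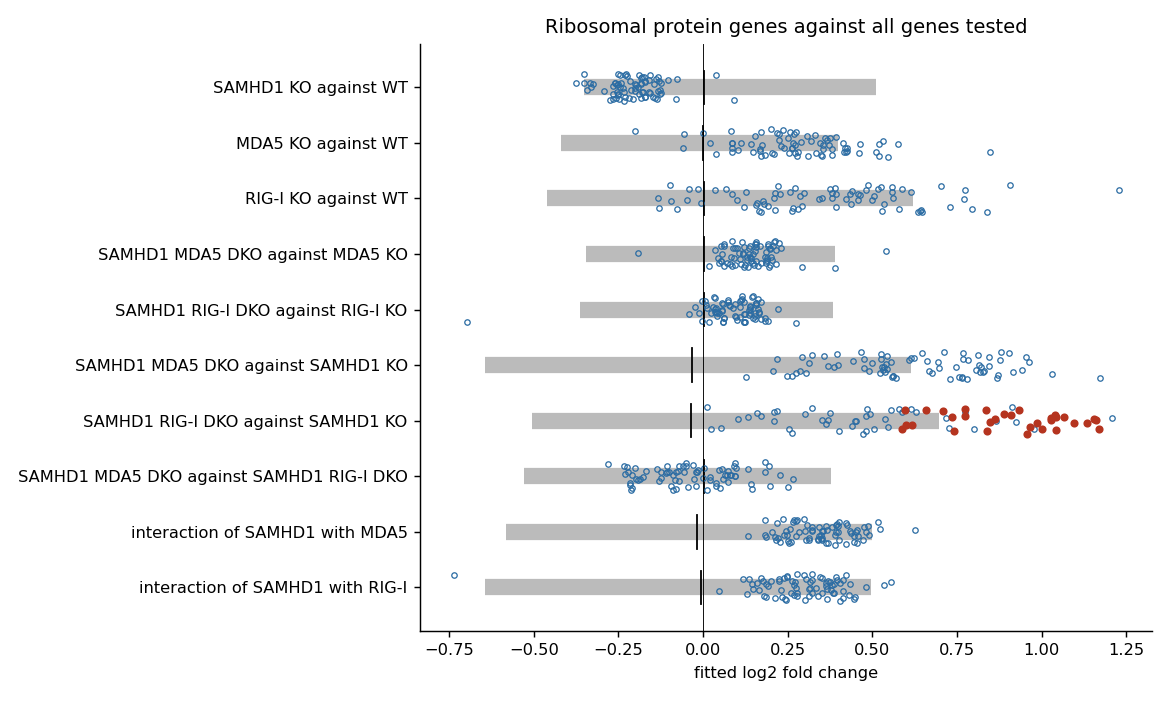
Fitted log2 fold changes of the 76 genes (circles, filled red where called) in 8 comparisons and 2 interactions; grey bars span the 5th to 95th percentile of all 13252 genes tested and ticks mark their median. The circles of both double knockouts against SAMHD1 KO lie to the right of 0, with medians of 0.61 and 0.62, and the filled ones are the 32 that rose in SAMHD1 RIG-I DKO.

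Ribosomal protein mRNAs are short, and other short genes had median fold changes of the same signs. The 73 protein-coding members had coding lengths of 75 to 1257 bases with a median of 453, against a median of 1374 in the 11655 other protein-coding genes tested. Among the 1045 other genes under 500 coding bases, the median log2 fold change of SAMHD1 RIG-I DKO against SAMHD1 KO was 0.33, with 77.9% positive and 27.8% called higher. The 46 members under 500 bases had a median of 0.77 and the 27 longer ones of 0.48. In SAMHD1 MDA5 DKO against SAMHD1 KO the other short genes had a median of 0.32, and short and longer members 0.72 and 0.54. In RIG-I KO against WT the values were 0.26 for other short genes and 0.44 and 0.23 for members, and in MDA5 KO against WT 0.18, 0.32 and 0.24. For SAMHD1 KO against WT they were -0.05, -0.23 and -0.17. Rpl4, with 1257 coding bases the longest member, had log2 fold changes between -0.13 and 0.13 in these 5 comparisons, and Rps26, with 345, between -0.18 and 0.27. Other genes of 4000 or more coding bases had a median of -0.09 in SAMHD1 RIG-I DKO against SAMHD1 KO and -0.12 in SAMHD1 MDA5 DKO against SAMHD1 KO. The part of transcript length in the members' differences was not tested.

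**Figure D5:**
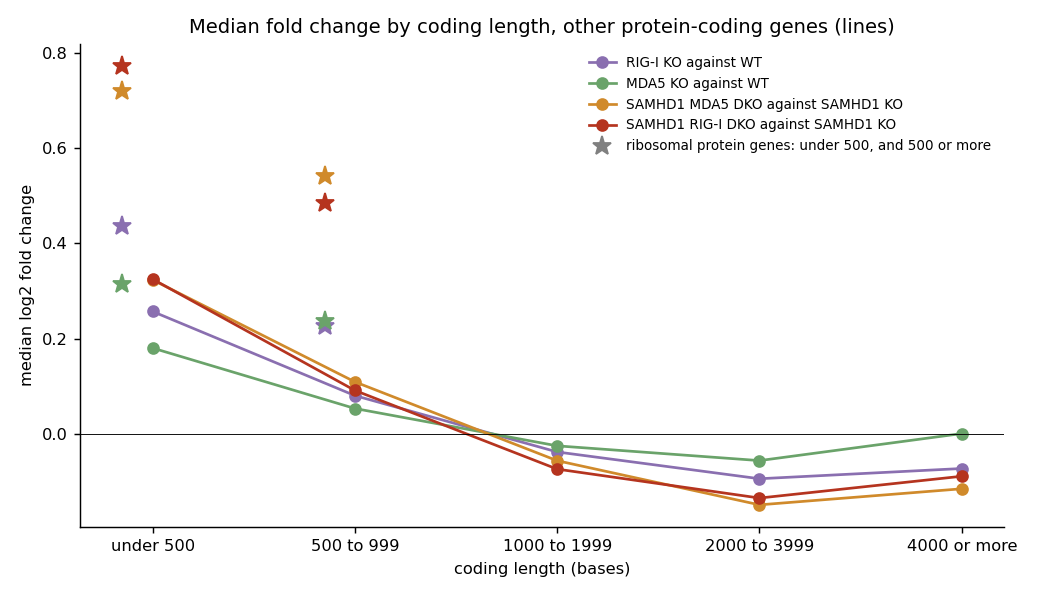
Median log2 fold change by coding length in bases for protein-coding genes outside the list (lines) and for the ribosomal protein genes under 500 bases and of 500 bases or more (stars), in 4 comparisons. Lines fall from 0.33, 0.32, 0.26 and 0.18 under 500 bases to 0 or below from 1000 bases on in 3 comparisons and below 4000 bases in MDA5 KO against WT, and each star lies above the line of its colour.

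Few genes of the wider translation machinery passed the test. In SAMHD1 RIG-I DKO against SAMHD1 KO, 1 of 18 elongation factors and other TOP genes rose and none fell, near the 5.62% of all genes called higher, with a median of 0.33. It was Btf3 (0.61 ± 0.19, limma adjusted p = 0.0458), part of the complex that guards nascent chains. Among 7 ribosomal genes with other names, Rpl22l1, a paralogue of Rpl22, rose by 0.94 ± 0.26 (limma adjusted p = 0.0283), and the median was 0.52. The 5 ribosomal protein genes listed under compound symbols had a median of 0.58, and those of Rpl34 (1.21 ± 0.33) and Rpl11 (0.58 ± 0.18) rose. Of 41 ribosome biogenesis genes, 3 rose and 3 fell, with a median of -0.05. Nop10 (0.79 ± 0.18), of the particles that modify rRNA, Nip7 (0.56 ± 0.18) and Taf1b (0.37 ± 0.12), a factor of RNA polymerase I, rose. Ubtf (-0.24 ± 0.07), which opens the rRNA genes, Nob1 (-0.25 ± 0.08), which cuts the last small subunit precursor, and Rrp1b (-0.37 ± 0.12) fell. Of 19 listed genes that control TOP translation and ribosome synthesis, Tsc2 (-0.33 ± 0.09), a brake on mTOR, and Myc (-0.94 ± 0.28) fell, and the median was -0.09. For comparison, 10.5% of all genes were called in either direction. None of 14 ribosome quality control genes was called by limma, and 2 had an unadjusted p under 0.05 (median -0.04).

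In RIG-I KO against WT, 3 of the 18 elongation factors and other TOP genes fell, against 4.21% of all genes called in either direction, in the direction opposite to most of the 76 genes. Eef2, the translocation factor, was at 114664 ± 21443 normalized counts (SD, n = 5) in WT and 81299 ± 3704 (SD, n = 4) in RIG-I KO (-0.48 ± 0.13, limma adjusted p = 0.0420). Pabpc1, which binds poly(A) tails, fell by 0.42 ± 0.12 (limma adjusted p = 0.0449) and Eif4b by 0.36 ± 0.09 (limma adjusted p = 0.0310). The median of the 18 was 0.13. Eif4ebp2, a repressor of cap-dependent translation, fell by 0.44 ± 0.11 (limma adjusted p = 0.0269), as 1 of the 19 control genes. In SAMHD1 MDA5 DKO against SAMHD1 KO limma called none of these lists' genes. There the elongation and TOP list had 9 of 18 genes at an unadjusted p under 0.05 and a median of 0.34, the biogenesis list 11 of 41 and 0.00, and the control list 7 of 19 and -0.20, beside 23.8% of all genes at an unadjusted p under 0.05.

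The 72 listed genes whose symbols mark pseudogenes of ribosomal protein genes (-ps) had fold changes of a similar size. In SAMHD1 RIG-I DKO against SAMHD1 KO 14 of them rose and none fell, against 5.62% of all genes called higher. Their median was 0.63 and 65 of 72 were positive. Rpl27-ps3 (1.21 ± 0.26, limma adjusted p = 0.0129) and Rpl15-ps3 (1.39 ± 0.32, limma adjusted p = 0.0168) had the smallest p-values. In SAMHD1 MDA5 DKO against SAMHD1 KO limma called none of the 72, against 0.121% of all genes. There 43 had an unadjusted p under 0.05, against 23.8% of all genes, and the median was 0.67. Some of the 72 were low, such as Rps19-ps2 and Rpl17-ps9, with means of 2.59 and 5.39 normalized counts in WT. Whether reads on these symbols came from pseudogene transcripts or from the parent mRNAs was not tested.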

How the data were processed

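Total RNA of mouse peritoneal macrophages was sequenced in 25 libraries. DESeq2, R 4.1.2, Salmon and STAR are the tools, and mm10 and GRCm38 the builds, that the submitters' processing notes list. The labels' extract protocol has Ensembl Gene 61, bedtools 2.16.2 and pBWA 0.5.9-r32-MPI-patch2 instead. The roles of these tools, and whether strand was used in counting, are not given in the sources used here. Expression was deposited by the authors as log2 values per library, which by their floor of 5.81 and form are DESeq2's variance-stabilized counts. The deposited signal columns hold the authors' mean normalized count per genotype, per the file headers. For 7 comparisons the authors deposited a fold change, p-value and adjusted p per gene, quoted as the authors' deposited table. Inverting the log2 values gave normalized counts whose genotype means matched the deposited ones within a relative deviation of 3.85e-14, and 100% of values were whole reads at a tolerance of 0.01.

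A column's name begins with its genotype, which gave its group, and columns were numbered in their order. The planned test assumed counts. Because the values were normalized, the fallback was limma 3.58.1 in R 4.3.3, with trend and robust options, on log2 of normalized count + 1, genotype as the only factor, two-sided, with Benjamini-Hochberg adjustment over the 13252 genes that reached 10 normalized counts in 4 or more libraries, and a threshold of 0.05. A fold change is the difference between group means on that log2 scale, given with its standard error. The 1 added to counts makes fold changes of low genes smaller. The fit was tested on simulated counts in which genes varied independently and no library stood apart. That test therefore does not cover genes that move together, as the ribosomal protein genes did here. The named genes were, in each comparison, up to 10 called genes per direction and the 2 with the smallest p-value in each direction, with the paralogues, the extremes of level and spread, and called genes of the related lists; 1 gene that this rule names is not reported here. Genes shown by library beyond these were chosen after their values were seen. The members and lists were chosen with earlier results of these data known. Gene models are GENCODE M21 and start sequences RefSeq, both on GRCm38. Other settings tried were the scale, pseudocount, filter, scaling, voom, the groups in the fit, and the libraries left out.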

Additional observations from a re-analysis of the deposited data

Results flagged for a closer look

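Values are listed here where the highest or lowest library of a genotype lay far from the nearest other library for the size of the group. The score and 15 genes were looked at in 6 genotypes, 96 groups in all, of which 17 met this; chance flags about 1 in 20 groups, and the genes are not independent of each other.

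WT library 3 was far below the other WT libraries in 13 of the 17. Its score was 12.94, against 14.00 in the nearest WT library. Its normalized counts were 10239.7 for Rpl13a, 5596 for Rpl22, 3908 for Rpl27, 13661 for Rpl5, 22541 for Rplp1, 8954 for Rps12, 10244.5 for Rps14, 5064 for Rps15a, 31099.6 for Rps2, 12041 for Rps26, 5747 for Rps27a and 404 for Rps27l. The nearest WT libraries held, for example, 31780.3 of Rpl13a, 29689 of Rps12 and 16401 of Rps26. The same library held 2.93% of its listed reads on the 76 genes, had a B cell marker sum of 140, the lowest of WT, and carries 1 of the last 2 library codes. Whether these have a common source was not tested.

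SAMHD1 MDA5 DKO library 3, which held 4952 normalized counts of Samhd1, was low for Rplp1 at 44730.2 normalized counts, against 55581 in the nearest library of its genotype. SAMHD1 RIG-I DKO library 2 was high for Rpl5 (59804, against 45978), Rplp1 (57236, against 45765) and Rps14 (66284, against 49415). It had the highest score of all libraries, 14.55.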

How the results depend on the processing

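Of the alternatives to the counts of called members and the score differences, 702 left the result where it was and 18 moved it; of those for single named genes 1224 left the call unchanged, 10 gained it and 57 lost it, and none turned a direction that had been called. In RIG-I KO against WT, 0 members were called, but 1 with reads scaled to all listed reads, 3 without WT library 3 and SAMHD1 KO library 2, 1 without the 2 libraries of intermediate Samhd1, and 0 to 1 when each library was left out in turn. In SAMHD1 MDA5 DKO against SAMHD1 KO, 0 were called, 41 without WT library 3 and SAMHD1 KO library 2, and 0 to 63 when each library was left out. In SAMHD1 RIG-I DKO against SAMHD1 KO, 32 were called, 49 with reads scaled to all listed reads, 16 with these genotypes alone in the fit, 52 without WT library 3 and SAMHD1 KO library 2, 0 without the 2 libraries of intermediate Samhd1, and 0 to 58 when each library was left out. The cause was not tested. Leaving out libraries of intermediate Samhd1 removes 1 of 4 SAMHD1 KO libraries and keeps WT library 3. Scaling to all listed reads moved the median of all genes by up to -0.10 on the log2 scale in SAMHD1 MDA5 DKO against SAMHD1 KO. Versions of the score without pseudogenes and with genes under other symbols were chosen after seeing the data. No paired analysis was possible because the columns carry library codes and no replicate numbers that match the titles.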
